A study of Homo sapiens with 6 samples.

Results

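The genes described are 8 cell surface proteins by which stromal cells and fibroblasts are commonly recognised or sorted: THY1, ENG, NT5E, PDPN, FAP, CD248, MCAM and ALCAM. They were taken by name, with no threshold on their values, from a table of 33117 gene symbols. All 8 had a row, and 6 reached a mean of 0.5 FPKM and were tested. FPKM counts the fragments of a gene per kilobase of its transcript and per mapped depth of the library. RNA sequencing of total RNA was done on WPMY-1, an immortalised line of stromal cells from the human normal prostate, grown in DMEM with 5% FBS. The 3 shCtrl libraries came from cells with the control plasmid pLKO1, and the 3 shCAVIN1 libraries from cells with a lentiviral short hairpin RNA against CAVIN1, a coat protein of the small membrane pits called caveolae. Both kinds of cells were selected with puromycin. The knockdown rests on 1 hairpin. The labels do not say if each replicate is a transduction or clone of its own, so a p-value here covers only the spread among the libraries, and that spread may be technical.

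Mesenchymal stromal cells are by convention positive for THY1 (CD90), NT5E (CD73) and ENG (CD105) and lack blood cell antigens such as PTPRC, CD34 and CD14. THY1, MCAM and ALCAM are adhesion proteins with immunoglobulin domains, NT5E and FAP are enzymes that act outside the cell, ENG is a co-receptor for ligands of the TGF-beta and BMP family, CD248 (endosialin) is a C-type lectin of pericytes and fibroblasts, and PDPN (podoplanin) is a mucin-like protein of lymphoid stroma and lymphatic endothelium. THY1 and NT5E are held in the membrane by a glycosylphosphatidylinositol (GPI) lipid anchor, and the others span it. In cultured bulk cells, fewer cells that express a gene and less RNA per cell cannot be told apart.

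CAVIN1, listed as PTRF, stood at 336 ± 9.78 FPKM in shCtrl and 141 ± 8.33 FPKM in shCAVIN1 (SD, n = 3 each, as in all values below unless stated), 42.0% of control. Of 14 fibroblast and stroma markers, such as VIM, SPARC and COL1A1, 13 were at 1 FPKM or more in every library. The summed FPKM of these 14 was between 1692 and 1839 in shCtrl and between 1149 and 1171 in shCAVIN1. The largest falls in FPKM were those of TAGLN (675 to 346) and FN1 (199 to 57.8). DCN (1.76 to 15.3 FPKM) and ACTA2 (4.94 to 9.89 FPKM) rose. By the test described below, 8 of the 13 tested were lower and 2 higher, and VIM and COL1A1 did not pass. Of all tested genes 28.2% were lower and 27.3% higher. Endothelial markers summed to between 1.20 and 1.61 FPKM in shCtrl and 2.06 and 2.49 FPKM in shCAVIN1 over 14 genes, each under 1 FPKM in every library and EMCN listed at 0. Blood cell markers summed to between 10.4 and 11.3 FPKM and between 14.8 and 15.9 FPKM over 14 genes, most of it CD68 and CORO1A, with HLA-DRA, CD3E and SPI1 listed at 0. Of 14 epithelial markers, 10 stayed under 1 FPKM and KLK2 and KLK3 were listed at 0, but the keratins KRT18 and KRT8 brought the sum to between 400.4 and 434 FPKM in shCtrl and between 245 and 260.0 FPKM in shCAVIN1. Pericyte markers (10 genes) summed to between 28.2 and 37.9 FPKM and between 28.6 and 31.9 FPKM, and melanocyte and neural markers (10 genes) to between 3.15 and 3.31 FPKM and between 2.31 and 2.64 FPKM. The shCtrl replicate 2 library stood apart in listing the abundant small nuclear RNA RN7SK at 0, against 106035 to 151555 FPKM in the other 5. The part of these marker lists and of that library in the results below was not tested, beyond leaving each library out.

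The knockdown cells carried more ALCAM and NT5E RNA and less MCAM and THY1 RNA than the control cells. ALCAM rose 2.70-fold and NT5E 2.03-fold, MCAM fell to 19.7% and THY1 to 62.7% of the control level, and FAP rose 1.46-fold at a level near 1 FPKM. ENG did not pass the test, CD248 lay below the tested range, and PDPN was listed at 0 in every library. In numbers, 5 of the 6 tested markers passed the test (limma on log2(FPKM + 0.5), Benjamini-Hochberg adjusted p under 0.05 over 13941 genes), 3 higher and 2 lower. Across all tested genes 55.5% passed, 27.3% higher and 28.2% lower. A pass is thus common in this comparison, and the count of 5 in 6 is to be read against that share. The groups did not overlap for any of the 6, against 64.6% of all tested genes. MCAM and ALCAM changed at least 2-fold on the log2(FPKM + 0.5) scale, as did 5.54% of tested genes. The median absolute log2 fold change was 0.79 over the 6 markers and 0.27 over all tested genes. The markers were chosen with earlier results of these data known, and the part of that choice in this difference was not tested.

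**Figure D1:**
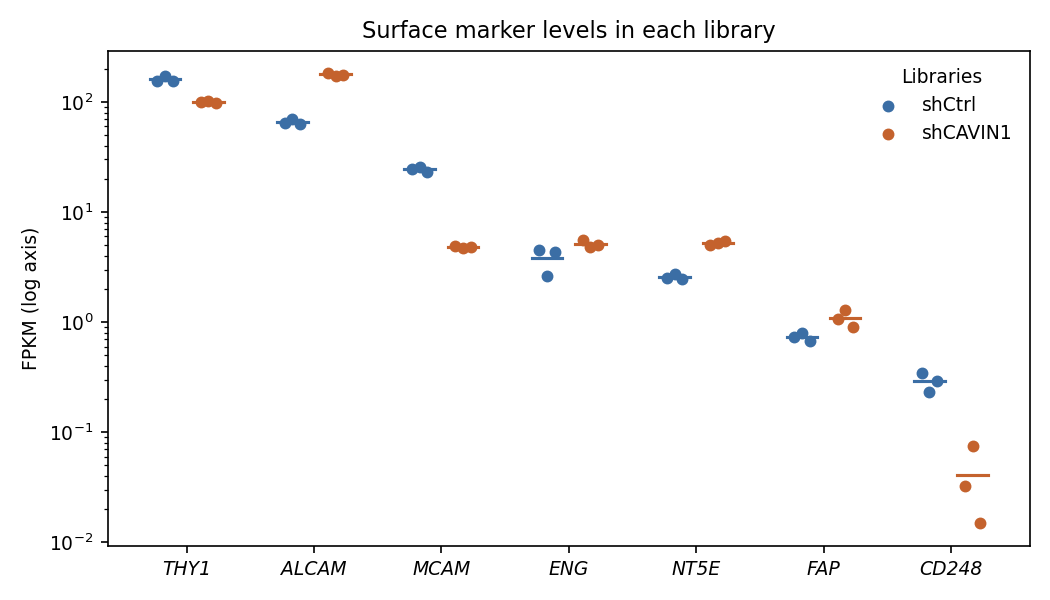
FPKM (log axis) of the 7 surface markers that were above 0, ordered by their mean in shCtrl. Points are single libraries (3 of shCtrl, 3 of shCAVIN1) and short lines are group means. ALCAM and NT5E sit higher and MCAM, THY1 and CD248 lower in shCAVIN1, with no overlap between groups for any gene shown. PDPN is left out because it was listed at 0 in all 6 libraries.

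MCAM (CD146), an adhesion protein of perivascular cells that binds laminin, showed the largest fall of the 6 tested genes. The shCtrl libraries held 24.5, 25.4 and 23.2 FPKM of it (replicates 1 to 3, the order used throughout), and the shCAVIN1 libraries 4.90, 4.71 and 4.81 FPKM. Every shCAVIN1 library was below every shCtrl library, and the spread within each group was small beside the gap. The mean fell from 24.4 ± 1.07 to 4.81 ± 0.0955 FPKM, 5.06-fold lower, or -2.23 on the log2 scale (SE 0.0470, adjusted p = 3.51e-06 by limma). Among the 13941 tested genes MCAM moved from rank 3296 by mean FPKM in shCtrl to rank 8932 in shCAVIN1. The gene (ENSG00000076706.16) covers 119308529 to 119321521 of chromosome 11 (GRCh38, minus strand). Its last exons overlap the end of CBL, a ubiquitin ligase gene on the other strand, and since the strand setting of the counting is not given in the sources used here, fragments from the overlap cannot be assigned to one of the pair. CBL itself was at 18.2, 8.13 and 13.5 FPKM in shCtrl and at 6.94, 6.08 and 5.60 FPKM in shCAVIN1.

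ALCAM (CD166), which binds to itself on neighbouring cells and to CD6 on T cells, showed the largest rise. Its levels were 64.6, 70.0 and 62.7 FPKM in the shCtrl libraries and 182, 173 and 177 FPKM in the shCAVIN1 libraries. All 3 knockdown libraries lay far above the controls. The mean rose from 65.8 ± 3.77 to 178 ± 4.37 FPKM, or 1.43 on the log2 scale (SE 0.0540, adjusted p = 1.53e-05 by limma), and ALCAM moved from rank 1222 to rank 472 among tested genes. The gene (ENSG00000170017.12) spans 105366909 to 105576900 on the plus strand of chromosome 3.

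The stretches that precede the transcription starts of these largest movers are shown to let their sequence be compared. They hold 250 bases each from RefSeq (GRCh38.p14), and neither overlaps an exon in GENCODE 29. The MCAM stretch lies inside the GENCODE span of the gene, which also holds transcripts that begin further out. ALCAM is at chr3:105366659-105366908 on the plus strand and MCAM at chr11:119317131-119317380 on the minus strand. Capitals mark the GC box GGGCGG, the cAMP response element TGACGTCA and the E-box CACCTG, on either strand.
ALCAM: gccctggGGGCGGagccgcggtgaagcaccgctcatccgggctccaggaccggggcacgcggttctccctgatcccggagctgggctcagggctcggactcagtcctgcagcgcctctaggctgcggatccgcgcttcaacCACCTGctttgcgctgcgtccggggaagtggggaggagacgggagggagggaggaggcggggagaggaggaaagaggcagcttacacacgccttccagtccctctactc
MCAM: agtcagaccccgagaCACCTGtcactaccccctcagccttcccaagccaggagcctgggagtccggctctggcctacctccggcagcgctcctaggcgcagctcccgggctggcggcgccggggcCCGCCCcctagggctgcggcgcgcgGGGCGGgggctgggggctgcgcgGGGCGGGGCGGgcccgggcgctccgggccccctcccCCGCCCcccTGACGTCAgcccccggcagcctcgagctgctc
The MCAM stretch held 5 GC boxes, 2 of them overlapping by 1 base in 1 run of capitals, and the ALCAM stretch 1. MCAM alone of the pair held a cAMP response element, whose first base lies 32 bases before the start. Both held 1 E-box. Neither held the AP-1 site TGACTCA or the TEAD core GGAATG. Over all 34943 RefSeq windows of 300 bases (250 before to 50 after a start), 44.9% held a GC box, 1.84% the cAMP response element, 20.6% the E-box, 4.96% the AP-1 site and 14.0% the TEAD core. The full 300-base windows of MCAM and ALCAM held the same motif counts as the stretches shown. They are rich in G and C, at 78.0% and 70.0% against a median of 58.7% over all windows, and the shares are not matched for this. These motifs were chosen with the sequences in view, and a match describes the letters and no binding. Windows for 5 of the 8 genes were in the RefSeq table, and those of ENG, NT5E and PDPN held no E-box, cAMP response element, AP-1 site or TEAD core, with 2 GC boxes in the NT5E window, 1 in each of 2 of the 3 PDPN windows and none in the ENG window.

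THY1 (CD90), a small adhesion glycoprotein that binds integrins, was the most abundant of the 8 in control cells. Its shCtrl libraries held 156, 172 and 154 FPKM, and its shCAVIN1 libraries 99.95, 103 and 98.6 FPKM. The groups were apart in all libraries, with a mean of 160.4 ± 9.90 FPKM against 101 ± 2.205 FPKM. The log2 fold change was -0.67 (SE 0.0560, limma adjusted p = 0.000198). After the libraries were rescaled to TPM (each library brought to the same sum) the fall was -0.55 on the log2 scale and missed the threshold (limma adjusted p = 0.0645). The gene (ENSG00000154096.13) covers 119417378 to 119424985 of chromosome 11 on the minus strand, inside the span of the antisense gene USP2-AS1, and without strand the overlapping reads cannot be told apart. USP2-AS1 was far less abundant than THY1 and fell from 1.65 ± 0.211 to 0.377 ± 0.0297 FPKM.

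Because FPKM is a value per length, levels can be set side by side. In shCtrl the order of means was THY1, ALCAM, MCAM, ENG, NT5E, FAP, CD248 and PDPN, and neighbours in it were apart in all libraries except ENG and NT5E, whose ranges overlapped. In shCAVIN1 the order became ALCAM, THY1, NT5E, ENG, MCAM, FAP, CD248 and PDPN, where the range of ENG overlapped those of NT5E and of MCAM, while NT5E was above MCAM in all libraries. THY1, ALCAM and MCAM together held between 96.1% and 97.7% of the summed FPKM of the 8 genes in every library. The sum itself lay between 247 and 274 FPKM in shCtrl and between 292 and 299 FPKM in shCAVIN1. Ratios within a library do not depend on how libraries are scaled: ALCAM over THY1 was 0.415, 0.407 and 0.408 in shCtrl and 1.82, 1.68 and 1.79 in shCAVIN1. ALCAM over MCAM went from between 2.64 and 2.76 to between 36.8 and 37.2. These adhesion proteins thus exchanged places, with ALCAM RNA below THY1 RNA in each control library and above it in each knockdown library.

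NT5E (CD73), the enzyme that turns extracellular AMP into adenosine, was at 2.50, 2.75 and 2.44 FPKM in shCtrl and at 5.04, 5.20 and 5.42 FPKM in shCAVIN1. No library of one group reached the range of the other. Its mean rose from 2.57 ± 0.166 to 5.22 ± 0.187 FPKM (log2 fold change 0.90, SE 0.0611, limma adjusted p = 9.87e-05). The gene (ENSG00000135318.11) spans 85449584 to 85495791 on the plus strand of chromosome 6. Of 13 tested genes on a list of 20 that make, break down or sense extracellular adenosine, 1 rose, 3 fell and 9 did not pass. Thus 30.8% passed, against 55.5% of all tested genes. The median log2 fold change was -0.11 against -0.02 over all tested genes. After TPM rescaling 1 rose and 1 fell at a median of 0.00. Under that scaling 3496 of 14247 of all tested genes passed, and their median was 0.09. ENTPD1 (CD39), which makes AMP from ATP, stood at 2.28 FPKM in shCtrl and 2.30 FPKM in shCAVIN1 and did not pass. The receptor ADORA2A fell from 1.93 ± 0.0392 to 0.276 ± 0.111 FPKM (log2 -1.66, limma adjusted p = 0.000123), while ADORA2B, the most abundant adenosine receptor here, stood at 12.5 and 11.5 FPKM and did not pass. Adenosine deaminase (ADA) rose 1.40-fold, and the nucleoside transporter SLC29A2 and adenosine kinase (ADK) fell to 62.9% and 88.4% of control.

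FAP, a serine protease of activated fibroblasts, was at 0.737, 0.804 and 0.677 FPKM in shCtrl and at 1.06, 1.28 and 0.906 FPKM in shCAVIN1. The groups did not overlap, but the lowest knockdown and the highest control library were close. The mean went from 0.739 ± 0.0633 to 1.08 ± 0.188 FPKM (log2 fold change 0.35, SE 0.112, limma adjusted p = 0.0392). This call was lost without shCtrl replicate 1 (adjusted p = 0.0803), shCtrl replicate 3 (0.107), shCAVIN1 replicate 1 (0.0870) or shCAVIN1 replicate 2 (0.114), with no filter on low values (0.0508) and after TPM rescaling (0.0907). FAP (ENSG00000078098.13) covers 162170684 to 162245151 of chromosome 2 on the minus strand, beside its close relative DPP4. DPP4 (CD26), a dipeptidyl peptidase that trims peptide hormones and chemokines, rose from 0.532 ± 0.0442 to 1.53 ± 0.0845 FPKM (log2 0.98, limma adjusted p = 0.000198), and IFIH1, a sensor of viral RNA on the other side of FAP, rose 2.28-fold. The hormone gene GCG, between DPP4 and FAP, was listed at 0 throughout. In the list of DPP4 relatives and prolyl peptidases, DPP4 was the 1 that rose of 8 tested genes and 4 fell. Thus 62.5% passed, against 55.5% of all tested genes. Those that fell included PRCP (62.0 ± 6.66 to 34.6 ± 0.689 FPKM), DPP8 (to 70.6% of control) and PREPL (to 90.2%). The median log2 fold change of the list was -0.16. After TPM rescaling 1 rose and 1 fell at a median of -0.04. Over all tested genes 3496 of 14247 then passed, at a median of 0.09.

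ENG (CD105), which presents ligands to the type I receptor ACVRL1, was at 4.49, 2.62 and 4.33 FPKM in shCtrl and at 5.56, 4.85 and 4.99 FPKM in shCAVIN1. The shCtrl replicate 2 library was low, and the other control libraries were close to the knockdown range. The means were 3.81 ± 1.04 and 5.13 ± 0.373 FPKM, and the log2 fold change of 0.41 (SE 0.186) did not pass (limma adjusted p = 0.104). Without shCtrl replicate 2 it was 0.20 (SE 0.0697, adjusted p = 0.0591), and after TPM rescaling 0.54 (adjusted p = 0.0290), which passed. The gene (ENSG00000106991.13) spans 127815012 to 127854756 on the minus strand of chromosome 9. Of 18 tested genes on a list of 22 for its receptors and their effectors, 4 rose and 7 fell, at a median log2 fold change of -0.08. Thus 61.1% passed, against 55.5% of all tested genes. After TPM rescaling 4 rose and 3 fell at a median of 0.03, beside 3496 of 14247 passing and a median of 0.09 over all tested genes. ACVRL1 stood below the tested range, at 0.211 FPKM in shCtrl and 0.0759 FPKM in shCAVIN1, and the ligands GDF2 (BMP9) and BMP10 were listed at 0. The receptor TGFBR1 fell from 25.7 ± 1.46 to 10.1 ± 0.779 FPKM, and the co-receptor TGFBR3 (betaglycan), the structural relative of ENG, rose from 0.463 ± 0.0509 to 1.47 ± 0.0924 FPKM. Response genes of the BMP and TGF-beta pathways on the list went both ways: ID1, ID3 and SMAD6 rose 1.49-fold, 2.23-fold and 2.80-fold, ID2 and SMAD7 fell to 68.4% and 65.9% of control, and BAMBI, at 4.65 and 4.52 FPKM, did not pass.

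CD248 was at 0.349, 0.233 and 0.292 FPKM in shCtrl and at 0.0328, 0.0746 and 0.0149 FPKM in shCAVIN1. Every knockdown library was below every control, at levels so low that they rest on few fragments. The means were 0.291 ± 0.0577 FPKM in shCtrl and 0.0408 ± 0.0306 FPKM in shCAVIN1, 7.15-fold lower. CD248 did not reach the filter of 0.5 FPKM. With no filter on low values its log2 fold change was -0.55 (SE 0.0692, limma adjusted p = 0.00201). The gene (ENSG00000174807.3) covers 66314487 to 66317044 of chromosome 11 on the minus strand. Its matrix ligand MMRN2 was at 1.61 FPKM in both groups and did not pass, and the pericyte receptor PDGFRB stood at 13.2 and 14.3 FPKM and did not pass.

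PDPN (ENSG00000162493.16, chromosome 1 at 13583465 to 13617957, plus strand) was listed at 0 in all 6 libraries. So were 10537 of the 33117 rows and 2080 of 19078 rows of protein-coding genes. A listed 0 may be a failed estimate. RN7SK, for example, was listed at 0 in shCtrl replicate 2 only, for a reason that was not tested. The 0 of PDPN is therefore given as listed and not as absence of the RNA. Its receptor on platelets, CLEC1B, was also listed at 0. The cytoskeletal linkers that bind its tail moved in different directions, ezrin (EZR) rising from 97.0 to 123 FPKM, moesin (MSN) falling from 124 to 107 FPKM and radixin (RDX) falling from 50.3 to 36.3 FPKM (limma adjusted p = 0.00401, 0.00691 and 0.00134).

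An exact two-sided permutation test of the difference of mean log2 values gave p = 0.1 for each of the 7 genes above 0, which is the smallest p that 3 libraries against 3 allow.

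The markers that were lower share a chromosome. THY1, MCAM and CD248 all lie on chromosome 11, and none of the other 5 does. MCAM and THY1 are 95.9 kb apart, and CD248 lies 53.0 Mb from MCAM. Within 1 Mb of MCAM, 21 of the 26 other tested protein-coding genes were lower and 1 higher, with a median log2 fold change of -0.52, and MCAM was below all 26. Within 1 Mb of THY1, 20 of 27 were lower and 2 higher, with a median of -0.51, and 5 of the 27 lay below THY1. Within 1 Mb of CD248, 36 of 58 were lower and 4 higher (median -0.26). Over chromosome 11 as a whole, 57.3% of 660 tested protein-coding genes were lower and 19.7% higher, with a median of -0.29. The shift was not even along the chromosome, counted from the lowest coordinate of THY1 as its start. Tested genes in the 5 Mb up to that start had a median of -0.59 (38 genes, MCAM among them). Those in the next 5 Mb had a median of 0.11 (12 genes, THY1 itself among them) and in the 5 Mb after that 0.32 (27 genes). Some partners and relatives named elsewhere in this text as lower also lie on chromosome 11, and others, such as TGFBR1 and ITGB1, do not. Those on it include PRCP (log2 -0.83), SLC29A2 (-0.56), RDX (-0.46), PGAP2 (-1.14) and CADM1 (-2.68), picked for being lower. The part of the regional shift in these falls was not tested. Genes of the lists on chromosome 11 also went otherwise: CD82 (0.34) was higher and CD59 (0.04) did not pass.

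Between MCAM and THY1 the shift ran through most of the genes. RNF26, an E3 ubiquitin ligase gene, fell to 64.2% of control, C1QTNF5 to 49.5%, and USP2 stayed below the tested range at 0.485 and 0.420 FPKM. When the median deviation of the other tested protein-coding genes within 5 Mb was taken off each gene in each library, an alternative added after the data were seen, THY1 stood at -0.18 (log2, SE 0.0684, adjusted p = 0.0520 by limma) and no longer passed. FAP, whose neighbours within 5 Mb had a median of -0.27, moved to 0.59 (limma adjusted p = 0.00179). Within 1 Mb of FAP, though, the 4 tested neighbours had a median of 0.22, with 2 higher and 2 lower. The direction of the shift around FAP thus depends on the window, and only the 5 Mb window was used for the subtraction. MCAM kept -1.74 (limma adjusted p = 2.09e-07), ALCAM 1.33 and NT5E 0.96. The fall of THY1 was thus about the size of that of its neighbours, and that of MCAM was larger. DNA copy number was not measured, and its part in these values was not tested. ALCAM had 17 tested neighbours within 5 Mb with a median of 0.08, NT5E 25 with a median of -0.09, and ENG 102 with a median of 0.02.

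**Figure D2:**
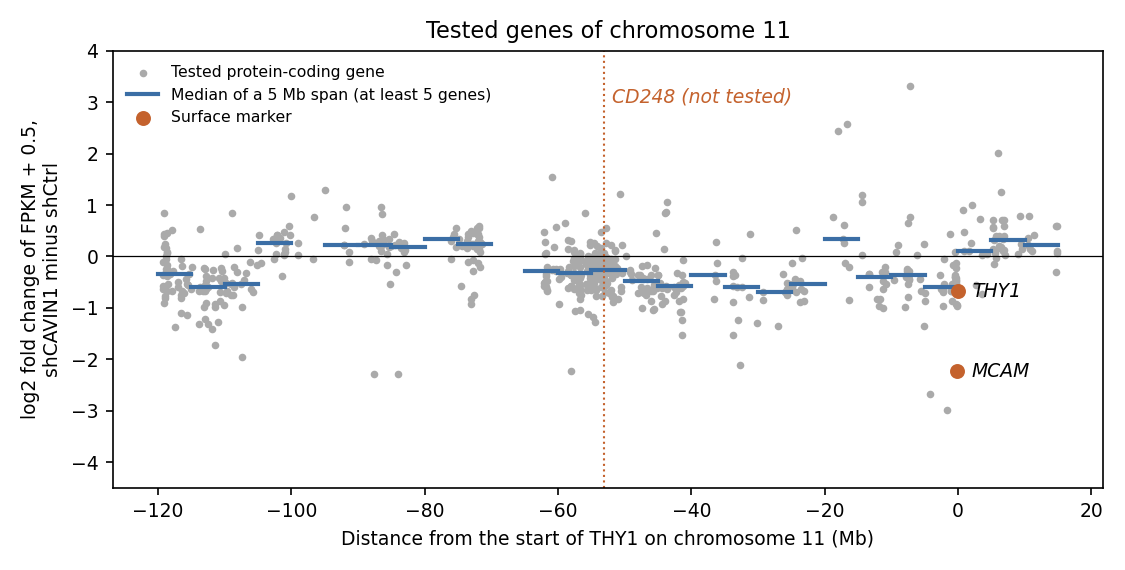
Log2 fold change of FPKM + 0.5 (shCAVIN1 minus shCtrl) of the 660 tested protein-coding genes of chromosome 11 against distance from the start of THY1 in Mb. The start is the lowest coordinate of the gene. Grey points are genes, blue lines are medians of 5 Mb spans with at least 5 genes, orange points are MCAM and THY1, and the dotted line marks CD248, which was not tested. THY1 at 0 lies near the median of the 5 Mb before it (-0.59) and MCAM well below, and the spans beyond THY1 have positive medians (0.11 and above).

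The genes whose pattern over the 6 libraries lay nearest to the largest movers were named by the root mean square difference of log2(FPKM + 0.5) centred on the shCtrl mean. For ALCAM they were OSBPL1A (0.0228), PDE5A (0.0250) and TFDP1 (0.0378), and for MCAM PHLDB2 (0.0516), PAMR1 (0.0526) and PAX6 (0.0639). With 2 groups this measure mostly finds genes with a like difference between groups: PDE5A, for example, went from 5.01 to 14.2 FPKM and PHLDB2 from 43.9 to 8.57 FPKM.

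Proteins that bind or cut the 8 markers went both ways. Of 33 tested genes on a list of 36, 8 rose, 14 fell and 11 did not pass, at a median log2 fold change of -0.16. Thus 66.7% passed, against 55.5% of all tested genes. After TPM rescaling 5 rose and 4 fell, where 3496 of 14247 of all tested genes passed. Integrin subunits, through which THY1 binds other cells and matrix, made up part of this: ITGB1 fell from 611 ± 52.2 to 321 ± 6.995 FPKM and ITGAV from 27.0 ± 0.784 to 16.7 ± 0.979 FPKM. WNT5A, a secreted Wnt protein that can act through MCAM, fell from 52.8 ± 3.22 to 24.7 ± 1.48 FPKM. Of the 4 laminin chains on the list, LAMA5, LAMB1 and LAMC1 fell to 52.4%, 83.1% and 76.1% of control, and LAMA4, a ligand of MCAM, stood at 4.26 and 3.81 FPKM and did not pass. LGALS3BP, a secreted glycoprotein that binds CD248, rose from 23.5 ± 1.20 to 67.4 ± 4.69 FPKM. ADAM17, the protease that sheds ALCAM, stood at 16.8 and 15.7 FPKM and did not pass, and MMP14, which sheds ENG, fell from 35.2 to 27.7 FPKM (limma adjusted p = 0.00390).

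Like THY1 and NT5E, the wider group of GPI-anchored surface proteins went both ways, with 14 of 31 tested genes higher, 7 lower and 10 not past the test (median log2 fold change 0.19). The share that passed was 67.7%, against 55.5% of all tested genes. CNTN1, a neural contactin, fell from 5.06 ± 0.390 to 0.0657 ± 0.00705 FPKM and RGMB, a BMP co-receptor, from 27.0 ± 1.36 to 13.6 ± 0.264 FPKM. NEGR1 rose 2.93-fold to 5.59 ± 0.0957 FPKM and MSLN (mesothelin) 8.85-fold to 2.21 ± 0.0994 FPKM. In the synthesis of the anchor itself, 7 of 28 tested genes rose and 9 fell (median 0.06), so that 57.1% passed. After TPM rescaling 4 rose and 3 fell (median 0.18), beside 3496 of 14247 passing and a median of 0.09 over all tested genes. Without that rescaling the genes of lowest adjusted p were the mannosyl donor subunit DPM3, which rose 3.51-fold to 67.4 ± 0.635 FPKM, PGAP2, which remodels the anchor lipid and fell to 43.1% of control, and PIGT and PIGN, at 64.8% and 66.9%.

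Of 27 tested adhesion molecules of the immunoglobulin family, the structural relatives of MCAM and ALCAM, 13 rose, 11 fell and 3 did not pass, with a median log2 fold change of 0.17. Thus 88.9% passed, against 55.5% of all tested genes. After TPM rescaling 7 rose and 6 fell, and with the regional median subtracted 11 of 22 passed. Under those settings 3496 of 14247 and 6115 of 11409 of all tested genes passed. CADM1 fell from 2.77 ± 0.236 FPKM to 0.0169 FPKM or less in each shCAVIN1 library, where replicate 1 is listed at 0. CXADR, the coxsackievirus and adenovirus receptor, fell from 14.4 ± 0.249 to 7.15 ± 0.347 FPKM. CD47, a signal against phagocytosis, rose from 17.1 ± 1.01 to 36.1 ± 1.54 FPKM and CADM4 1.65-fold. L1CAM, an adhesion molecule of the nervous system, rose from 2.33 ± 0.336 to 5.05 ± 0.390 FPKM.

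Among 40 other surface markers of stromal cells, 31 were tested, of which 12 rose, 9 fell and 10 did not pass. Thus 67.7% passed, against 55.5% of all tested genes. The median log2 fold change was -0.03, against -0.02 over all tested genes. It was 0.09 after TPM rescaling and 0.02 after quantile normalization, where all tested genes had medians of 0.09 and 0.01. CDH11, a cadherin of fibroblasts, fell from 7.42 ± 0.288 to 0.0296 ± 0.0108 FPKM, and LEPR (the leptin receptor, a marker of perivascular stroma in bone marrow) rose from 1.90 ± 0.0889 to 5.10 ± 0.0595 FPKM. ITGA1, a collagen-binding integrin, rose 1.84-fold. Of the antigens that mesenchymal stromal cells lack by convention, PTPRC (CD45), below the tested range, stood between 0.0236 and 0.0655 FPKM in shCtrl and between 0.128 and 0.148 FPKM in shCAVIN1. CD34, also below it, stood between 0.122 and 0.194 FPKM in shCtrl and between 0.579 and 0.720 FPKM in shCAVIN1. CD14 was at 1.01, 1.35 and 1.30 FPKM in shCtrl and at 0.503, 0.607 and 0.415 FPKM in shCAVIN1 (limma adjusted p = 0.00261).

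**Figure D3:**
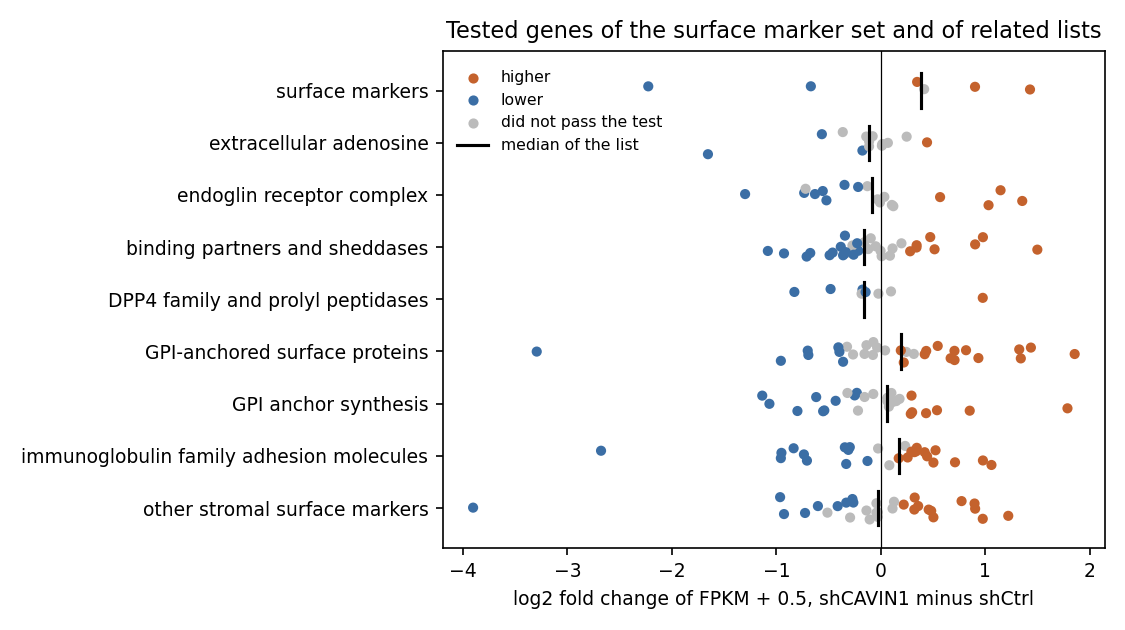
Log2 fold change of FPKM + 0.5 (shCAVIN1 minus shCtrl) of each tested gene (points, spread vertically for legibility) in the surface marker set and the 8 related lists. Orange points were higher and blue points lower at a limma adjusted p under 0.05, grey points did not pass, and black bars are medians. The medians of the related lists lie between -0.16 and 0.19, with genes on both sides in each list.

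**Figure D4:**
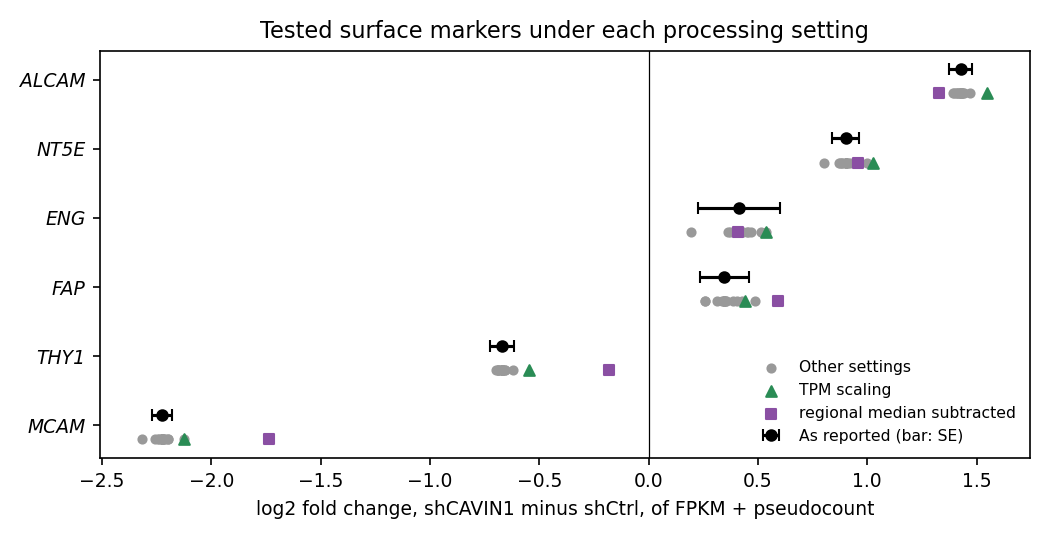
Log2 fold change (shCAVIN1 minus shCtrl) of the 6 tested markers. Black points with bars are the reported value and its SE, and the points beneath are the alternatives in scaling, filter, pseudocount, variance model, pairing and libraries left out, with TPM scaling and subtraction of the regional median drawn apart. MCAM and THY1 stay below 0 and the other 4 above 0 under every setting run, and THY1 comes nearest to 0, at -0.18, with the regional median subtracted.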

How the data were processed

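RNA sequencing of total RNA was measured in 6 libraries of WPMY-1 cells, 3 with the control plasmid (shCtrl) and 3 with a hairpin against CAVIN1 (shCAVIN1), grouped by their titles in the labels. The authors deposited 1 table of FPKM values with the 6 libraries as columns. GRCh38, CASAVA, TopHat, TopHat2 (with the version 2.2.5) and bcl2fastq 2.17.1.14 are named per the submitters' processing notes. Not given in the sources used here are the quantifier, its annotation and filters, and whether it used strand. FPKM sums ranged from 758837 to 1043843 per library, so a few abundant RNAs can shift all other values of a library. Whole fragments were not recovered, so the absolute depth is unknown. A rough estimate from ratios of the lowest values put the depths at 0.71 to 1.1 times that of shCtrl replicate 2. No counting interval is given, and values under 1 FPKM are the least precise.

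Genes with a mean of at least 0.5 FPKM (13941) were tested by limma (version 3.58.1, under R 4.3.3) on log2(FPKM + 0.5), with a term for the group and a variance trend, and with Benjamini-Hochberg adjustment over all of them. Log2 fold changes are on that scale, which understates changes of low genes, and folds are ratios of mean FPKM. The fit was checked on simulated data. The 8 markers were picked as a set of known names and not by a cutoff on their values, but they and the lists were chosen with earlier results of these data known: 325 of 326 list entries were found in the table, 7 of them by an older symbol. Genes named are all 8 markers, their chromosomal neighbours, the 3 genes nearest in pattern to the largest riser and faller, the genes of lowest adjusted p in each list (up to 4), and partners described by their role, some of which were picked after their values were seen. Positions come from GENCODE 29 and promoter windows from RefSeq. Alternatives covered pseudocount, filter, scaling, variance model, the replicate number as a block and leaving out each library. Scaling on protein-coding genes and subtraction of a regional median were added after seeing the data.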

Additional observations from a re-analysis of the deposited data

How the results depend on the processing

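Of 18 alternatives, each left 4 or 5 surface markers past the threshold. ALCAM (log2 fold change 1.33 to 1.55), NT5E (0.80 to 1.02) and MCAM (-2.32 to -1.74) passed under all of them, and no tested marker changed direction. THY1 missed the threshold under TPM scaling (-0.55) and with the regional median subtracted (-0.18). FAP lay between 0.26 and 0.59 and lost its call in 6 of 17 settings (it was not tested at a mean FPKM of at least 2), and ENG gained one under TPM scaling (0.54).

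TPM scaling lowered the genes called from 7734 to 3496, with 64.5% of them higher against 49.2%, and shifted the median over tested genes (-0.02) to 0.09. It also lowered the called genes of the lists from 4 to 2 (adenosine), 11 to 7 (endoglin receptors), 22 to 9 (binding partners), 5 to 2 (prolyl peptidases), 16 to 7 (anchor synthesis), 24 to 13 (immunoglobulin family) and 21 to 12 (other stromal markers). The cause was not tested. With the regional median subtracted, 3 prolyl peptidases and 11 immunoglobulin family genes passed, the latter of 22 tested in place of 27, since genes with few neighbours drop out. Leaving out 1 library gave 6227 to 8511 genes called, 3 to 6 adenosine genes and 3 to 6 prolyl peptidases, the latter 3 without shCAVIN1 replicate 2.

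Same-numbered libraries deviated together only weakly or not at all (r of 0.0936, 0.0714 and -0.0282). For shCAVIN1 replicates 1 and 2 the same-numbered control gave the highest r, and for replicate 3 it was shCtrl replicate 2 (0.0772). With values this small, the numbers are not taken as pairs. With the replicate number as a block, the replicate block left 5 surface markers past the threshold.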
